A study of Mus musculus with 43 samples.

Results

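The mouse mitochondrial genome encodes 37 genes, and all 37 have a row in the deposited table of 57010 genes. They were taken as every row whose Ensembl identifier maps to a symbol beginning with mt-. They are 13 protein-coding genes, 2 ribosomal RNAs (mt-Rnr1 of the small and mt-Rnr2 of the large ribosomal subunit) and 22 transfer RNAs. Of the 13 proteins, 7 belong to complex I of the respiratory chain (mt-Nd1, mt-Nd2, mt-Nd3, mt-Nd4, mt-Nd4l, mt-Nd5, mt-Nd6), 1 to complex III (mt-Cytb), 3 to complex IV (mt-Co1, mt-Co2, mt-Co3) and 2 to the ATP synthase, complex V (mt-Atp6, mt-Atp8). The study compared wild-type mice with mice carrying Q150X, a stop codon placed in Vegfa by CRISPR/Cas9 editing. Vegfa encodes a growth factor for blood vessels. Bulk RNA sequencing was done on 43 libraries in 14 groups, before injury (homeostasis) and after myocardial infarction (MI).

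Whole hearts were sampled at homeostasis (3 wild type, 3 Q150X), at day 7 after MI (4 and 4) and at day 30 (3 and 4). Isolated endothelial cells were sampled at homeostasis (3 and 3) and at day 3 (2 and 2), and isolated cardiomyocytes at homeostasis and at day 3 (3 per group). The titles mark Q150X libraries "ho". The sources used here give no age, sex, strain or method of cell isolation, and no library labelled as sham-operated was analysed here. Nothing in the labels ties libraries to separate animals, so p-values measure the spread between these libraries, which may in part be technical. The libraries held 25035490 to 45243608 counts.

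Mitochondrial DNA is transcribed from both strands into long precursors. The transfer RNAs between the other genes are cut out, which frees the messenger RNAs and ribosomal RNAs, and stability then sets much of the level of each. Proteins made from these genes are joined in the inner membrane with subunits that come from nuclear genes. The heart muscle cell is among the cells richest in mitochondria, and adult myocytes make most of their ATP by oxidative phosphorylation.

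A few libraries, 4 in all, stood apart in marker genes of other tissues or cells, and results that rest on them are given with and without them. Homeostasis hearts number 1 of both genotypes had a summed level of 2518 (wild type) and 1932 (Q150X) CPM, here counts scaled to the nuclear gene counts of a library, for a list of atrial, fat and placental markers, against 1.08 to 1.77 in the other 4 homeostasis hearts. Their atrial and fat genes made up these sums. Wild-type day 7 heart number 4 had 672.9 for that list, of which 670.4 came from the placental gene Tpbpa. Q150X endothelial library number 2 of day 3 had 1818 for the endothelial markers, against 8141 to 12707 in the other 3 of that day. At homeostasis the compartments carried their defining markers: the summed cardiomyocyte markers were at 110040 to 121460 in homeostasis cardiomyocytes and at 548 to 926 in homeostasis endothelial cells, where the endothelial markers were at 20749 to 23770.

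Several mitochondrial genes have near-identical annotated copies in nuclear DNA, which bears on every count below. Such copies are pieces of mitochondrial DNA that moved to a chromosome. A search of GENCODE transcripts found 7 pseudogenes with stretches of at least 40 bases at 99% identity or more, all in 1 block of 4663 bases, at chr1:24611535-24616197 on build GRCm38. Gm28661 matches 681 of the 684 bases of mt-Co2, Gm10925 matches 678 of 681 bases of mt-Atp6 together with the last 43 bases of mt-Atp8, and Gm28437 matches 783 of 784 bases of mt-Co3. Gm10222 matches mt-Nd4l over 294 bases and Gm28438 matches mt-Nd3 over 345 bases. Parts of mt-Nd4 (876 of 1378 bases, Gm28439) and of mt-Co1 (483 of 1545, Gm29216) are also copied. That leaves mt-Nd1, mt-Nd2, mt-Nd5, mt-Nd6 and mt-Cytb, 5 of the 13, and both ribosomal RNAs without such a copy. Between the copies of mt-Co2 and mt-Atp6 the block has 233 bases, as many as the mitochondrial genome has there. The rest of mt-Atp8 lies in that stretch of the mitochondrial genome, with mt-Tk. mt-Ts1, mt-Td, mt-Tg and mt-Tr also lie between genes copied in the block. The search covered annotated transcripts only, so copies of these in the unannotated parts of the block were not looked for. Stretches of 60 bases from 3 gene and copy pairs show how close the copies are, with capitals marking bases that differ within a pair. For the near-identical copies these are the first 60 bases. Those of mt-Co2 and Gm28661 are identical.
mt-Co2: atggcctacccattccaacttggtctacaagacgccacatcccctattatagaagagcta
Gm28661: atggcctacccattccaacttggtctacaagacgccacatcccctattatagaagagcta
Those of mt-Nd3 and Gm28438 differ by T3C, counted from the first base of the gene.
mt-Nd3: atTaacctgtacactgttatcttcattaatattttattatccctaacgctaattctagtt
Gm28438: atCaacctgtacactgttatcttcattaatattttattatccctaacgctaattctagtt
A more distant copy of mt-Co1 on chromosome 2, Gm13340 (97.6% identity), differs within bases 24 to 83 by C54A and A60G.
mt-Co1: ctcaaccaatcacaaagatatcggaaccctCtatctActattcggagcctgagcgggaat
Gm13340: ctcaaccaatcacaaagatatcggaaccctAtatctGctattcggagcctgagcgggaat

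Counts were split between the genes compared and their near-identical copies, and smaller parts went to the more distant copies examined. Of the summed counts of mt-Atp6 and Gm10925, the pseudogene held a median of 37.6% over the 43 libraries (16.1 to 58.5%). The pseudogene's part was 28.9% for mt-Co2 (16.5 to 39.9%), 23.3% for mt-Co3 (12.7 to 39.4%) and 18.2% for mt-Nd3 (6.75 to 54.6%). It was 7.99% for mt-Nd4l (3.68 to 28.4%) and 0.980% for mt-Nd4 (0.275 to 2.91%). The near-identical Gm29216, which copies part of mt-Co1, was not compared in this way. Among more distant copies, Gm11410, which is 92.9% identical to mt-Cytb, had at most 62 counts in any library. Gm13340 had up to 14843 counts, at most 0.504% of the counts of its pair with mt-Co1. Gm13341, which is 95.9% identical to mt-Co2, had at most 1.97% of the counts of its pair. The sources used here do not give the read length or the treatment of reads that match several places. Reads of these genes and of their copies therefore cannot be told apart, and the levels of mt-Co2, mt-Co3, mt-Atp6, mt-Nd3 and mt-Nd4l are uncertain. Those of mt-Atp8 and mt-Ts1 may be as well, since the block may hold unannotated copies of them. Together the 7 copies held 0.00374 to 0.747% of all counts.

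Per kilobase of gene, mt-Co1, the catalytic subunit of cytochrome c oxidase, had the highest count in the median library. With mt-Cytb of the same library as 100%, counts per kilobase had a median of 179% for mt-Co1, 80.0% for mt-Nd1, 59.6% for mt-Nd2, 57.9% for mt-Nd4, 40.2% for mt-Nd6 and 39.6% for mt-Nd5. The ribosomal RNAs were at 14.4% (mt-Rnr2) and 9.17% (mt-Rnr1). Whether libraries were made by poly(A) selection or by removal of ribosomal RNA is not given, and the level of ribosomal RNA depends on that step. The genes copied over nearly their whole length were lower than these, with 7.81% for mt-Co2, 5.59% for mt-Co3, 5.49% for mt-Atp6, 4.99% for mt-Nd4l and 0.579% for mt-Nd3. With the copy's counts added, these medians were 10.7% for mt-Co2, 7.07% for mt-Co3, 8.78% for mt-Atp6, 5.60% for mt-Nd4l and 0.718% for mt-Nd3. Each of these sums was below mt-Nd5, and that of mt-Co2 was above mt-Rnr1. Reads left uncounted because they match several places would not be recovered by such a sum. It therefore cannot show how low these genes are.

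The genes also differed in how steady their part of the mitochondrial counts was. Over all 43 libraries the highest share was 1.30 times the lowest for mt-Co1 and mt-Cytb, 1.33 times for mt-Nd1, 1.46 for mt-Nd2, 1.497 for mt-Nd4, 1.83 for mt-Nd6 and 2.31 for mt-Nd5. It was 6.52 times for mt-Rnr2 and 7.45 times for mt-Rnr1. For the copied genes it was 3.81 (mt-Nd4l), 9.99 (mt-Co2), 12.9 (mt-Nd3), 19.5 (mt-Atp6) and 20.1 (mt-Co3). The widest range was that of mt-Atp8, a short subunit of the ATP synthase, at 119.8 times, and its lowest count in a library was 14. Its sequence of 204 bases ends in 43 bases, in capitals, that it shares with the start of mt-Atp6.
mt-Atp8: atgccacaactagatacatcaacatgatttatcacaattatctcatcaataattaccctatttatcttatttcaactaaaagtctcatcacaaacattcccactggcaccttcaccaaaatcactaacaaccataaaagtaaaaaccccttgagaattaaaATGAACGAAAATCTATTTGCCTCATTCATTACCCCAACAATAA

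**Figure D1:**
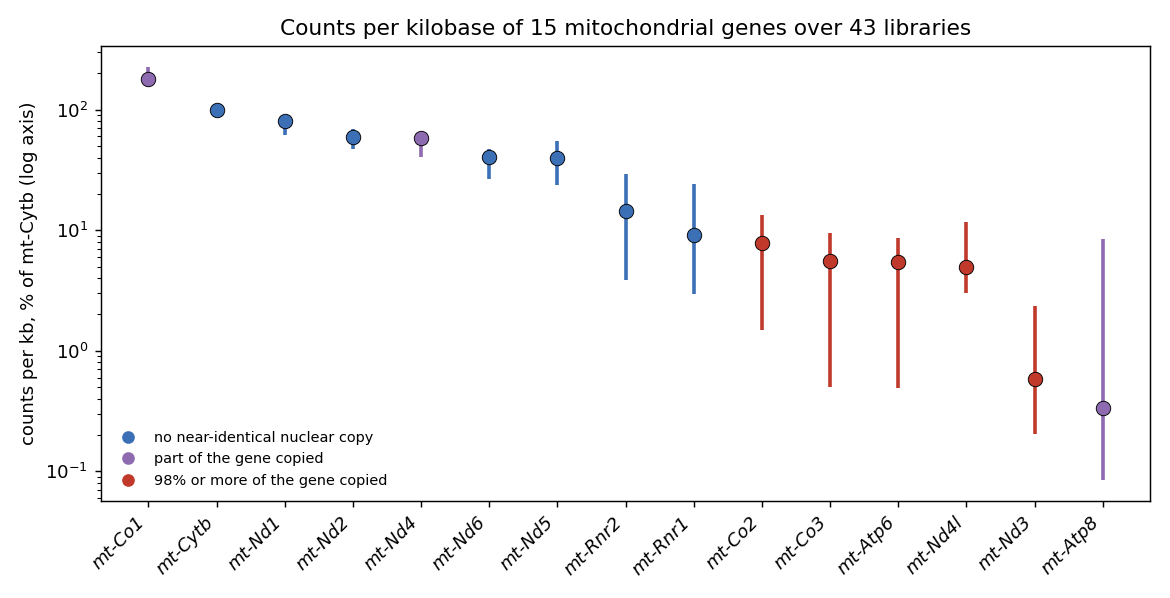
Counts per kilobase of the 13 protein-coding and 2 ribosomal RNA genes as a percentage of mt-Cytb of the same library (log axis); points are medians and lines run from the lowest to the highest of 43 libraries. The 5 genes copied over nearly their whole length lie between 7.81% (mt-Co2) and 0.579% (mt-Nd3), below the genes without a near-identical copy. mt-Atp8 has the lowest median (0.3375%) and the longest line.

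The share of all counts that came from the 37 genes separated the compartments at homeostasis, in the order cardiomyocytes, whole hearts, endothelial cells, with no overlap between neighbours. In wild-type cardiomyocytes it was 39.6, 49.95 and 41.5%, and in Q150X cardiomyocytes 37.2, 39.0 and 36.9%. In wild-type hearts it was 26.8, 30.1 and 30.3%, and in Q150X hearts 25.6, 31.6 and 33.7%. In endothelial cells it was 2.40, 2.04 and 1.87% (wild type) and 1.81, 1.73 and 1.89% (Q150X). Cardiomyocytes were 1.37-fold above hearts (log2 difference 0.45) and 20.8-fold above endothelial cells (4.38), and endothelial cells were below hearts by 3.92 on the log2 scale. Each of these 3 comparisons, with 6 libraries against 6, gave an exact two-sided permutation p = 0.005 within genotype, or 0.022 after Benjamini-Hochberg adjustment over the 66 tests of this kind. mt-Co1 was the gene with the most counts in every heart and cardiomyocyte library, and alone held 8.79 to 12.7% of all counts in hearts, up to 16.4% in cardiomyocytes and 0.699 to 0.962% in homeostasis endothelial cells. In bulk samples fewer cells of a type and less RNA per cell cannot be told apart, so the values of whole hearts mix both.

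**Figure D2:**
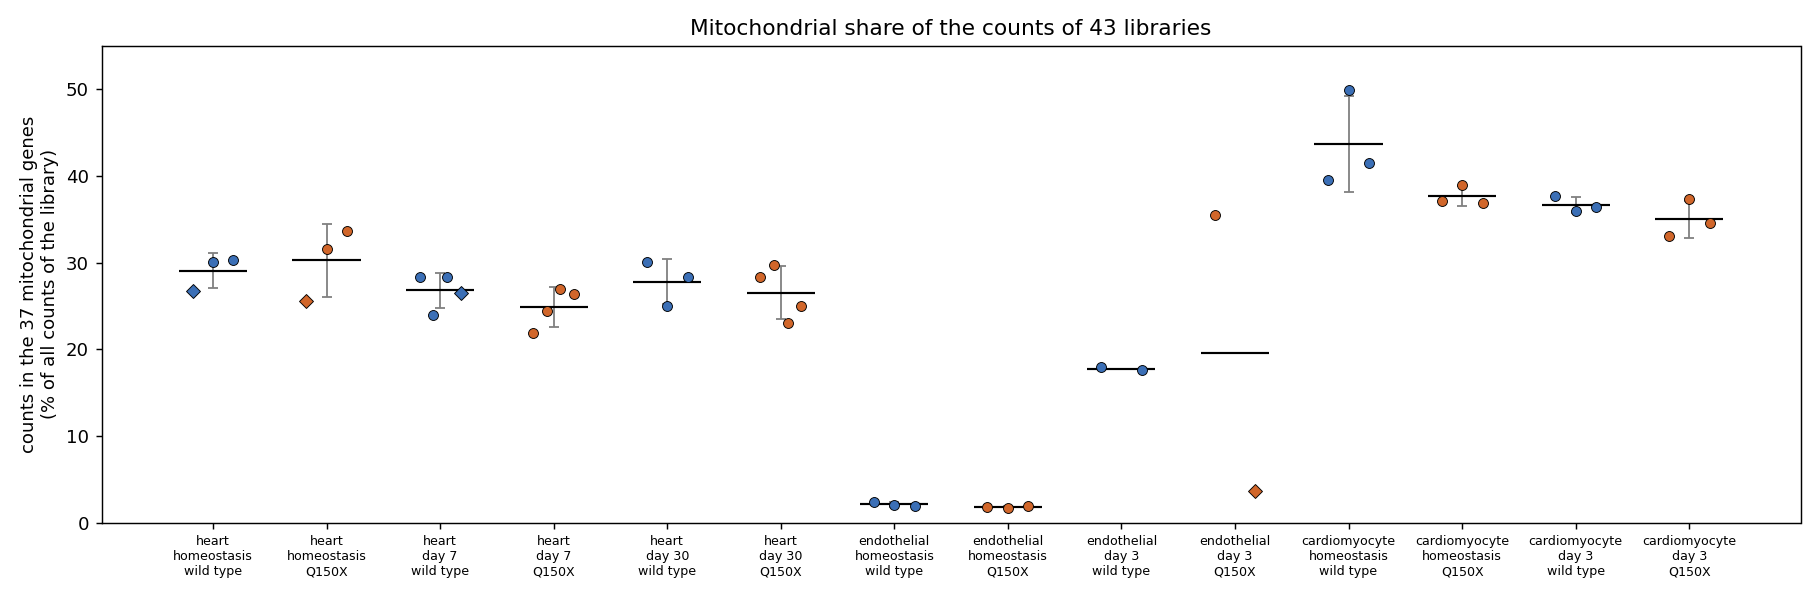
Counts in the 37 mitochondrial genes as a percentage of all counts of each library, by group; each point is 1 library, horizontal lines are means, vertical bars are SDs (groups of 3 or 4), and diamonds mark the 4 libraries that stand apart in marker genes. Homeostasis endothelial cells lie between 1.73 and 2.40%, and the 4 endothelial libraries of day 3 are spread from 3.64 to 35.5%.

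Cardiomyocytes also divided their mitochondrial counts among the genes in another way. The 7 complex I genes held 46.5 to 48.1% of the protein-coding mitochondrial counts in homeostasis cardiomyocytes, against 38.1 to 44.0% in hearts and 39.4 to 42.8% in endothelial cells. The difference in log2 share was 0.18 from hearts and 0.22 from endothelial cells (exact permutation test, 6 against 6, adjusted p = 0.022 for each). mt-Nd5, a core proton-pumping subunit of complex I, stood out by level: it held 12.03 to 13.3% of all mitochondrial counts in homeostasis cardiomyocytes, 8.65 to 11.8% in hearts and 7.21 to 8.36% in endothelial cells. The summed share of the 3 complex IV genes went the other way, by -0.18 against hearts and -0.25 against endothelial cells (exact permutation test, adjusted p = 0.022 for each). The 2 sums are parts of 1 total, so they do not vary independently. Of the 3 genes mt-Co1 was lower, with 32.2 to 34.3% of mitochondrial counts in cardiomyocytes, 36.1 to 41.9% in hearts and 36.95 to 41.6% in endothelial cells. The copied mt-Co2 (0.566 to 0.842%) and mt-Co3 (0.500 to 0.790%) overlapped with hearts. Both were above endothelial cells, which had 0.125 to 0.381% and 0.0505 to 0.107%. mt-Nd6, the protein gene on the annotated minus strand, held a larger part of the protein-coding counts in cardiomyocytes (2.85 to 3.20%) than in endothelial cells (2.07 to 2.54%), by 0.41 on the log2 scale (adjusted p = 0.022). It shares 14 bases with mt-Nd5 on the other strand, and the strand setting of the counting is not given, so reads of mt-Nd6 and antisense reads there cannot be told apart.

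**Figure D3:**
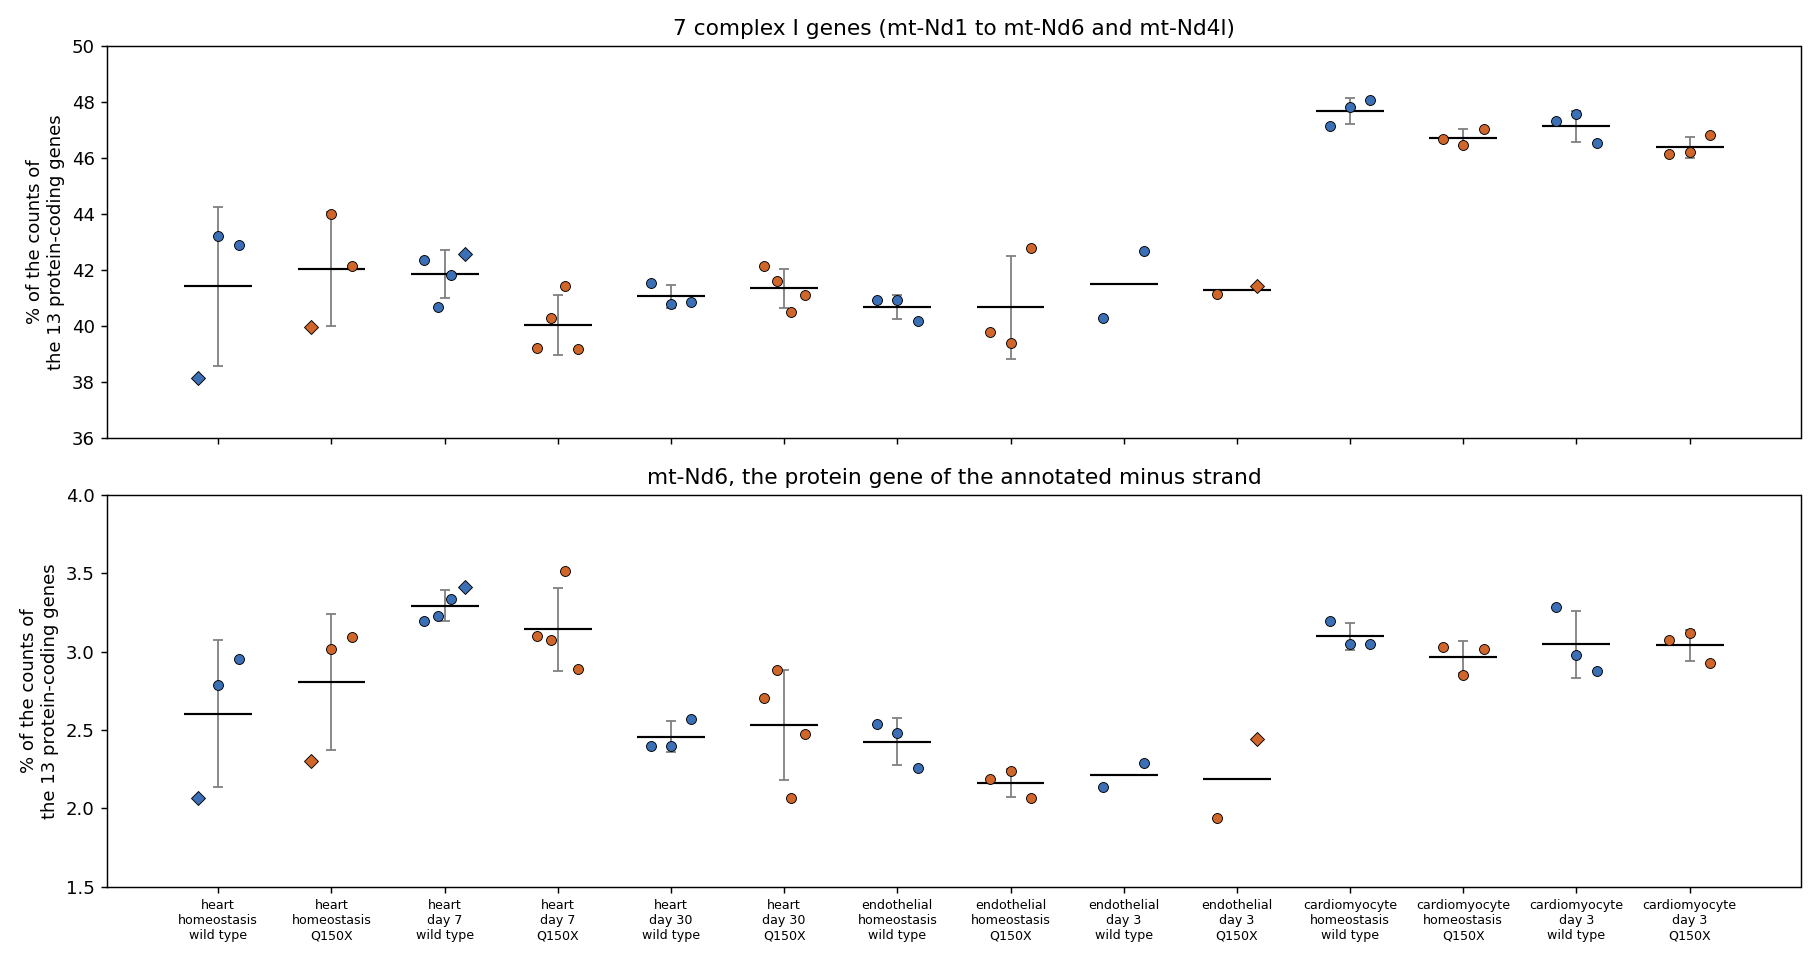
The 7 complex I genes (upper) and mt-Nd6 alone (lower) as a percentage of the counts of the 13 protein-coding mitochondrial genes; points are libraries, horizontal lines means, vertical bars SDs (groups of 3 or 4), diamonds the 4 libraries that stand apart, and the axes do not start at 0. The 12 cardiomyocyte libraries lie at 46.1 to 48.1% for complex I, above every heart and endothelial library.

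Ribosomal RNA took the largest part of the mitochondrial counts in endothelial cells. mt-Rnr1 and mt-Rnr2 together held 6.32 to 8.48% there at homeostasis, against 3.69 to 4.50% in cardiomyocytes, a log2 difference of -0.89 for cardiomyocytes (exact permutation test, 6 against 6, adjusted p = 0.022). In homeostasis hearts they held 2.07, 6.04 and 5.56% (wild type) and 1.35, 5.76 and 5.11% (Q150X), so that heart number 1 of both genotypes, which carried the atrial and fat markers, was far below the other 4. With all 6 hearts, endothelial cells were 1.03 above hearts (adjusted p = 0.022). Without those 2 the difference was 0.44 (adjusted p = 0.0629), and that of cardiomyocytes from hearts turned from 0.14 (adjusted p = 0.811) to -0.44 (0.033).

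In cardiomyocytes at day 3 after MI, mitochondrial transcripts fell, and the ribosomal RNAs fell most steadily. In wild-type cells mt-Rnr1 held 0.885, 0.988 and 0.916% of mitochondrial counts at homeostasis and 0.518, 0.623 and 0.547% at day 3. In Q150X cells mt-Rnr1 held 1.03, 0.863 and 0.901%, then 0.482, 0.556 and 0.381%. The mt-Rnr2 share went from 3.17, 3.05 and 2.78% to 2.30, 2.33 and 2.36% in wild type, and from 3.47, 3.31 and 3.42% to 1.73, 1.91 and 1.74% in Q150X. No day 3 library reached a homeostasis library for either gene. Both together fell by 0.69 in log2 share (exact permutation test over 6 against 6 libraries within genotype, adjusted p = 0.022).

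The test of each gene across the whole table, edgeR's quasi-likelihood test with Benjamini-Hochberg adjustment over 15169 genes, placed these changes beside the rest of the transcriptome. In wild-type cardiomyocytes 11 of the 15 messenger and ribosomal RNAs fell at day 3 and none rose. Over all genes tested 17.4% were called, 7.22% lower and 10.1% higher. mt-Rnr1 fell by 1.31 (log2 fold change, SE 0.20, adjusted p = 0.000724) and mt-Rnr2 fell by 0.94 (SE 0.14, adjusted p = 0.000463). Among complex I genes mt-Nd5 fell by 0.73 (adjusted p = 0.00151), mt-Nd6 by 0.58 (0.0063), mt-Nd2 by 0.56 (0.0109), mt-Nd4 by 0.54 (0.0114) and mt-Nd1 by 0.42 (0.0355). mt-Cytb, the core of complex III, fell by 0.60 (adjusted p = 0.00595) and mt-Co1 by 0.50 (0.0175). The copied genes mt-Atp6 (-1.08, adjusted p = 0.0235) and mt-Co3 (-1.19, 0.0419) passed with larger SEs of 0.28 and 0.35. The calls for mt-Nd1, mt-Co1, mt-Atp6 and mt-Co3 were each lost in 5 to 8 of 13 alternatives. The values of mt-Co2 (-0.70), mt-Nd3 (-1.32), mt-Nd4l (-1.22) and mt-Atp8 (-0.14) did not pass.

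In Q150X cardiomyocytes 4 of the 15 fell at day 3 (27% of all genes called, 12.1% lower): mt-Rnr2 by 1.29 (SE 0.14, adjusted p = 2.9e-05), mt-Rnr1 by 1.33 (SE 0.20, 0.000378), mt-Nd5 by 0.48 (0.0121) and mt-Nd2 by 0.41 (0.0362). The median of the 15 was -0.41, against -0.70 in wild type and close to 0 over all genes (-0.0045 in Q150X and -0.0092 in wild type). A difference between the genotypes in the response to MI was called for none of the 15 by edgeR (smallest adjusted p = 0.671, 0 at an unadjusted p under 0.05) or by DESeq2. These folds are relative to the composition-scaled library, and scaling to the library total alone moves the median of all genes to 0.30 in wild type and 0.27 in Q150X. The median of the 13 messenger RNAs is then -0.27 in place of -0.60, and -0.06 in place of -0.33, with 4 and 2 of the 15 called. Measured directly, the share of all counts from the 37 genes went from the homeostasis values above to 37.7, 35.96 and 36.4% (wild type) and 33.1, 37.3 and 34.6% (Q150X), a log2 difference of -0.18 (exact permutation p = 0.015, adjusted p = 0.0471). Leaving out 1 library lost this call in 6 of 12 cases (adjusted p up to 0.0861), and without wild-type homeostasis library number 2 the difference was -0.12 (adjusted p = 0.0629). The 2 ribosomal RNAs were called in both genotypes under every alternative run, and mt-Nd5 in wild type.

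**Figure D4:**
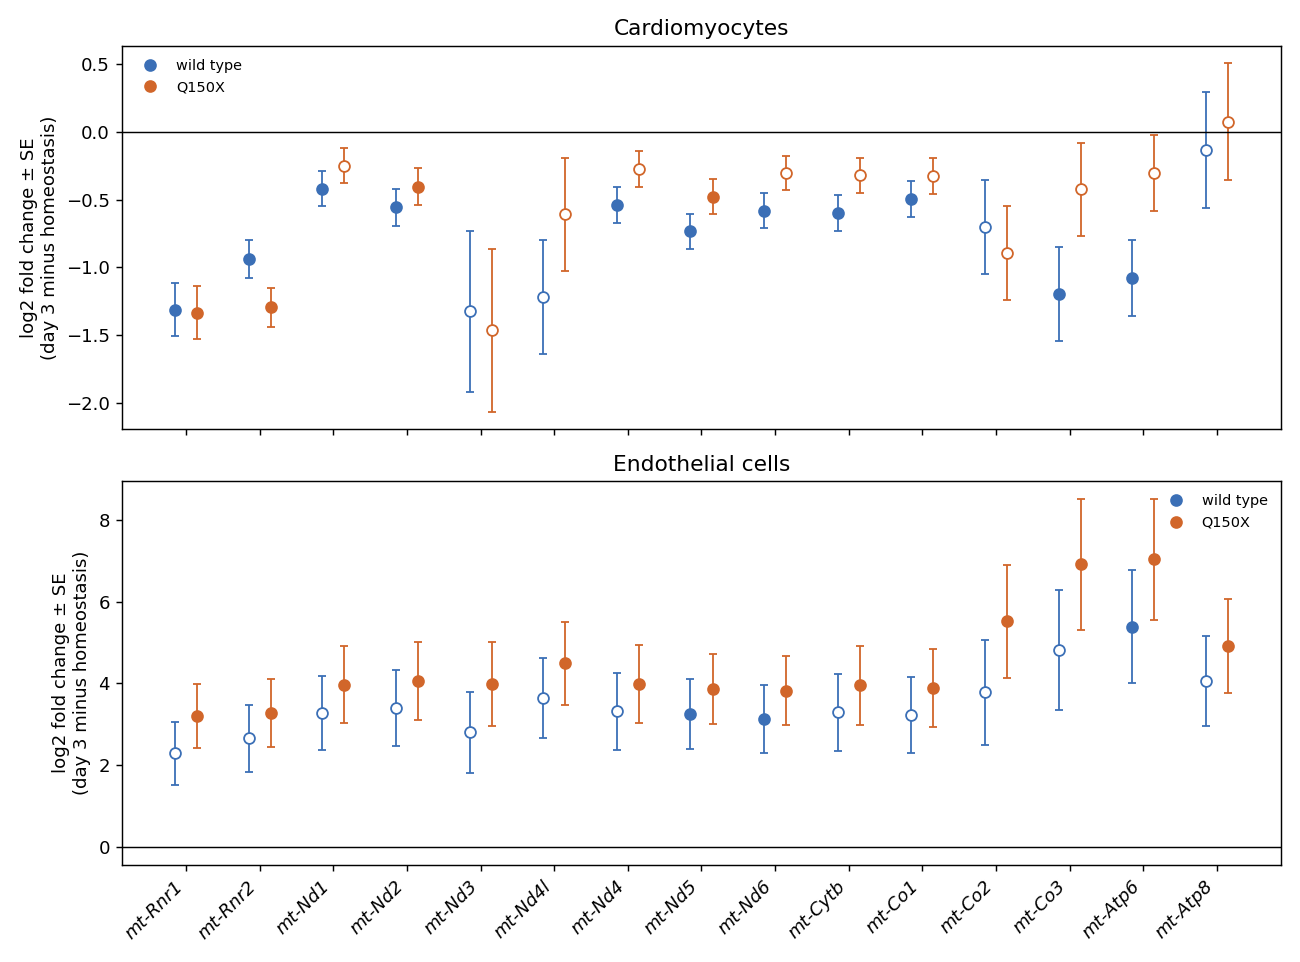
Log2 fold change (points) and its SE (bars) at day 3 against homeostasis for the 15 messenger and ribosomal RNA genes in cardiomyocytes (upper) and endothelial cells (lower); filled points have an adjusted p under 0.05 in edgeR's quasi-likelihood test. mt-Rnr1 and mt-Rnr2 are the genes called in cardiomyocytes of both genotypes with the smallest adjusted p, and all 30 endothelial points lie above 0.

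Many nuclear genes whose products work with the mitochondrial transcripts fell as well in these cells. Over all genes tested, 7.22% were called lower in wild type and 12.1% in Q150X. Of 78 nuclear genes of complexes I to V, 50 fell in wild type and 72 in Q150X, and none rose (medians -0.42 and -0.54). Leaving out 1 library gave 26 to 53 in wild type and 61 to 71 in Q150X, and scaling to the library total alone gave 3 and 29. By complex, the genes that fell in wild type and in Q150X were 23 and 33 of 36 for complex I, 2 and 3 of 4 for complex II, 5 and 9 of 9 for complex III, 9 and 12 of 13 for complex IV, and 11 and 15 of 16 for complex V. The muscle form of a complex IV subunit, Cox7a1, fell by 1.04 (SE 0.15) and by 1.18 (SE 0.15). Mitochondrial ribosomal proteins, which with mt-Rnr1 and mt-Rnr2 form the mitochondrial ribosome, fell in 14 of 77 genes and in 36 of 77, led by Mrps28 (-0.79 ± 0.15 SE) in wild type and Mrps16 (-0.82 ± 0.13 SE) in Q150X. These counts were 5 to 13 and 19 to 34 with 1 library left out. With scaling to the library total the direction turned in wild type, where 8 rose and 1 fell, and in Q150X 1 rose and 5 fell. Of 18 genes for copying and transcribing mitochondrial DNA, 1 and 5 fell: the helicase Twnk in wild type (-0.47 ± 0.14 SE), and in Q150X among others the mitochondrial RNA polymerase Polrmt (-0.61 ± 0.15 SE). Of 23 genes for processing and stability of mitochondrial RNA, 2 and 6 fell. In wild type the counts of these last lists, of 18 and 23 genes, were near the share over all genes. Lrpprc, which stabilises mitochondrial messenger RNAs, fell by 0.33 (SE 0.10) and by 0.46 (SE 0.10), and Rexo2, a mitochondrial nuclease for short RNAs, rose by 0.47 (SE 0.12) and by 0.36 (SE 0.12). Of 10 regulators of mitochondrial biogenesis the receptors Esrra and Esrrg fell in both genotypes.

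Other cells' markers rose in the same day 3 cardiomyocyte libraries. The summed leukocyte markers were at 149 to 435 CPM of nuclear counts against 2.93 to 16.3 at homeostasis, and 9 of 9 tested leukocyte markers rose in each genotype. The fibroblast sum was 674 to 1632 against 27.5 to 140, and the cardiomyocyte sum 92434 to 106630 against 110040 to 121460. The part of these cells in the fall of the mitochondrial genes was not tested.

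In endothelial cells at day 3 after MI, the mitochondrial share of counts was higher than at homeostasis in all 4 libraries, by amounts that differed widely. It was 17.98 and 17.6% in the wild-type libraries, and 35.5 and 3.64% in Q150X libraries number 1 and 2, against 1.73 to 2.40% at homeostasis. The log2 difference was 2.87, a 7.31-fold higher share (exact permutation test, 4 against 6, p = 0.01, the smallest this design allows, adjusted p = 0.0347). Without Q150X library number 2, which stood apart in its markers and had the lowest share of the 4, the difference was 3.55 (adjusted p = 0.075). mt-Co1 alone held 7.36, 6.80, 13.8 and 1.495% of all counts in these 4 libraries, against at most 0.962% at homeostasis.

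Gene by gene, edgeR called 3 of the 15 messenger and ribosomal RNAs higher in wild-type endothelial cells at day 3, where 9.52% of all genes were called, 6.71% higher and 2.81% lower. They were mt-Atp6 (log2 fold change 5.38 ± 1.38 SE, adjusted p = 0.0461), mt-Nd5 (3.25 ± 0.85 SE, 0.0479) and mt-Nd6 (3.14 ± 0.82 SE, 0.0492). All 15 lay above 0, from 2.30 (mt-Rnr1) to 5.38, with a median of 3.30. None was called when any 1 of the 5 libraries was left out or with the replicate number as a block, and 15 were called by DESeq2 or when the 2 groups were fitted alone. In Q150X all 15 were called higher (33.8% of all genes called, 18.7% higher), from 3.21 (mt-Rnr1) to 7.03 (mt-Atp6), with a median of 3.99. Without library number 1 of day 3, 7 of the 15 passed and mt-Co3 was at -0.11. Without 1 of the homeostasis libraries 4 to 8 passed, and with the 2 groups fitted alone, or with the replicate block, none passed. No gene among the 15 was called for a difference in response between genotypes (smallest adjusted p = 0.615, 0 at an unadjusted p under 0.05, DESeq2 0).

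Within the mitochondrial counts of endothelial cells, ribosomal RNA took a smaller part at day 3, at 4.31 and 4.93% in wild type and 4.91 and 6.42% in Q150X, against 6.32 to 8.48% at homeostasis. The log2 difference was -0.58 (exact permutation p = 0.01, adjusted p = 0.0347), and the groups overlapped only through Q150X library number 2. Without that library it was -0.68 (adjusted p = 0.075). The mt-Atp6 share was 0.474 and 0.192% in wild type and 0.581 and 0.0971% in Q150X at day 3, against 0.0417 to 0.0821% at homeostasis. For mt-Co3 it was 0.203, 0.237, 0.692 and 0.0495% against 0.0505 to 0.107%. Both genes have near-identical nuclear copies. Of genes without such a copy, mt-Cytb held 15.2, 15.03, 15.2 and 13.48% at day 3 and 14.1 to 15.2% at homeostasis. mt-Rnr1, also without a copy, held 1.16, 1.38, 1.52 and 2.16% against 2.03 to 2.84%. The copied mt-Nd3 overlapped with homeostasis, at 0.00936 to 0.0231% against 0.0155 to 0.0258%.

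The nuclear partner genes were tested in the same fit. Over all genes there, 6.71% were called higher and 2.81% lower in wild type, and 18.7% and 15.1% in Q150X. Of the 78 nuclear oxidative phosphorylation genes none was called in wild type (median 0.19, 5 at an unadjusted p under 0.05), and in Q150X 1 rose (Ndufv3, 0.52 ± 0.16 SE) and 2 fell (Ndufb2, -0.89 ± 0.26 SE, and Atp5j, -0.91 ± 0.26 SE). Mitochondrial ribosomal proteins rose in 1 of 77 genes in wild type (Mrpl19, 1.05 ± 0.22 SE) and in 14 in Q150X, where 2 fell. Of 18 genes for copying and transcribing mitochondrial DNA, 0 were called in wild type and 5 rose in Q150X, and of 23 for processing and stability of mitochondrial RNA, 1 rose and 1 fell in wild type and 8 rose and 2 fell in Q150X. The Q150X counts moved with single libraries. Without day 3 library number 1, 39 oxidative phosphorylation genes fell and 1 rose, and without number 2, 13 rose and 1 fell. Leaving out 1 library at a time gave 6 to 30 mitochondrial ribosomal protein genes. Among genes of mitochondrial RNA processing Tbrg4 rose (0.82 ± 0.16 SE and 1.03 ± 0.16 SE), and Pde12, which trims poly(A) tails from mitochondrial messenger RNAs, fell by 3.17 (SE 0.19) and by 3.49 (SE 0.20).

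Marker genes differed along with the mitochondrial share in these libraries. The summed cardiomyocyte markers, in the order wild type 1 and 2 and Q150X 1 and 2, were at 1875, 1634, 2441 and 72.3 CPM of nuclear counts. Endothelial cells of homeostasis had 548 to 926. Among the 4 libraries of day 3 the order matched that of the mitochondrial share. Q150X library number 2 was below every homeostasis library for these markers, and above every one in mitochondrial share. None of the 12 was called at day 3 in either genotype, and none was at 0 in every library of a group. Relative to the median of homeostasis cardiomyocytes these sums were 1.58, 1.38, 2.06 and 0.061%, while mitochondrial counts per nuclear count stood at 33.9, 33.0, 85.0 and 5.85% of that median. Endothelial markers were at 12466, 12707, 8141 and 1818 against 20749 to 23770 at homeostasis, and leukocyte markers at 3862, 4279, 8189 and 3632 against 90.9 to 193, with 10 of 12 called higher in wild type and 11 of 12 in Q150X. The X-inactivation transcript Xist was at 390 to 1422 in all 4 and at most 1.23 at homeostasis, while summed Y-linked genes were at most 0.500 against 323 to 382. Time and sex therefore cannot be told apart in endothelial cells, and the part of cardiomyocytes and leukocytes in the mitochondrial values was not tested.

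In whole hearts the total mitochondrial share moved little after MI. At day 7 it was 28.3, 24.0, 28.4 and 26.4% in wild type and 21.8, 24.4, 26.9 and 26.3% in Q150X. At day 30 it was 30.1, 24.95 and 28.4% in wild type and 28.3, 29.7, 23.1 and 24.99% in Q150X. These ranges overlapped with homeostasis, and within each time so did the genotypes. Both times are compared with the same homeostasis hearts. Day 7 was below homeostasis by 0.20 on the log2 scale (exact permutation test, 8 against 6, p = 0.0261, adjusted p = 0.075), and without the 3 hearts that stood apart by 0.29 (adjusted p = 0.0275). Day 30 differed from homeostasis by -0.13 (adjusted p = 0.30) and from day 7 by 0.073 (adjusted p = 0.497).

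How the share was divided among the genes differed more clearly between day 7 and day 30. The 2 ribosomal RNAs held 3.92 to 4.72% of mitochondrial counts in the 8 hearts of day 7 and 2.52 to 3.74% in the 7 of day 30, without overlap (log2 difference -0.48, exact permutation p = 0.000408, the smallest this design allows, adjusted p = 0.0135). mt-Nd6 went from 2.89 to 3.52% of the protein-coding counts at day 7 to 2.07 to 2.88% at day 30 (-0.37, exact permutation p = 0.000408, adjusted p = 0.0135). mt-Atp8 held 0.00646 to 0.0124% at day 7 and 0.152 to 0.256% at day 30, mt-Nd4l 0.136 to 0.224% and 0.328 to 0.452%, and mt-Nd5 5.74 to 8.14% and 10.4 to 11.98%. Of the 15 genes, 6 had no overlap between the days, and the same count was not made over all genes. The summed nuclear copies went the same way as mt-Atp8 and mt-Nd4l, with 0.860 to 1.59% of the level of the mitochondrial counts at day 7 and 1.69 to 2.29% at day 30.

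At homeostasis the hearts did not form 1 group in this respect. mt-Atp8 held 0.150% in wild-type heart number 1 and 0.119% in Q150X heart number 1, against 0.00552 to 0.00919% in the other 4. mt-Nd4l held 0.337 and 0.373% against 0.120 to 0.171%, mt-Nd5 10.3 and 11.8% against 8.65 to 9.43%, and mt-Rnr2 1.41 and 0.878% against 3.81 to 4.45%. For 12 of the 15 genes both number 1 hearts lay outside the other 4, on the same side. Their shares were nearer the day 30 median than the median of the other 4 for 14 genes in the wild-type heart and for 13 in the Q150X heart. The 15 shares are parts of 1 total, so they do not vary independently, and neither count was made over all genes. These are the hearts with the atrial and fat markers.

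**Figure D5:**
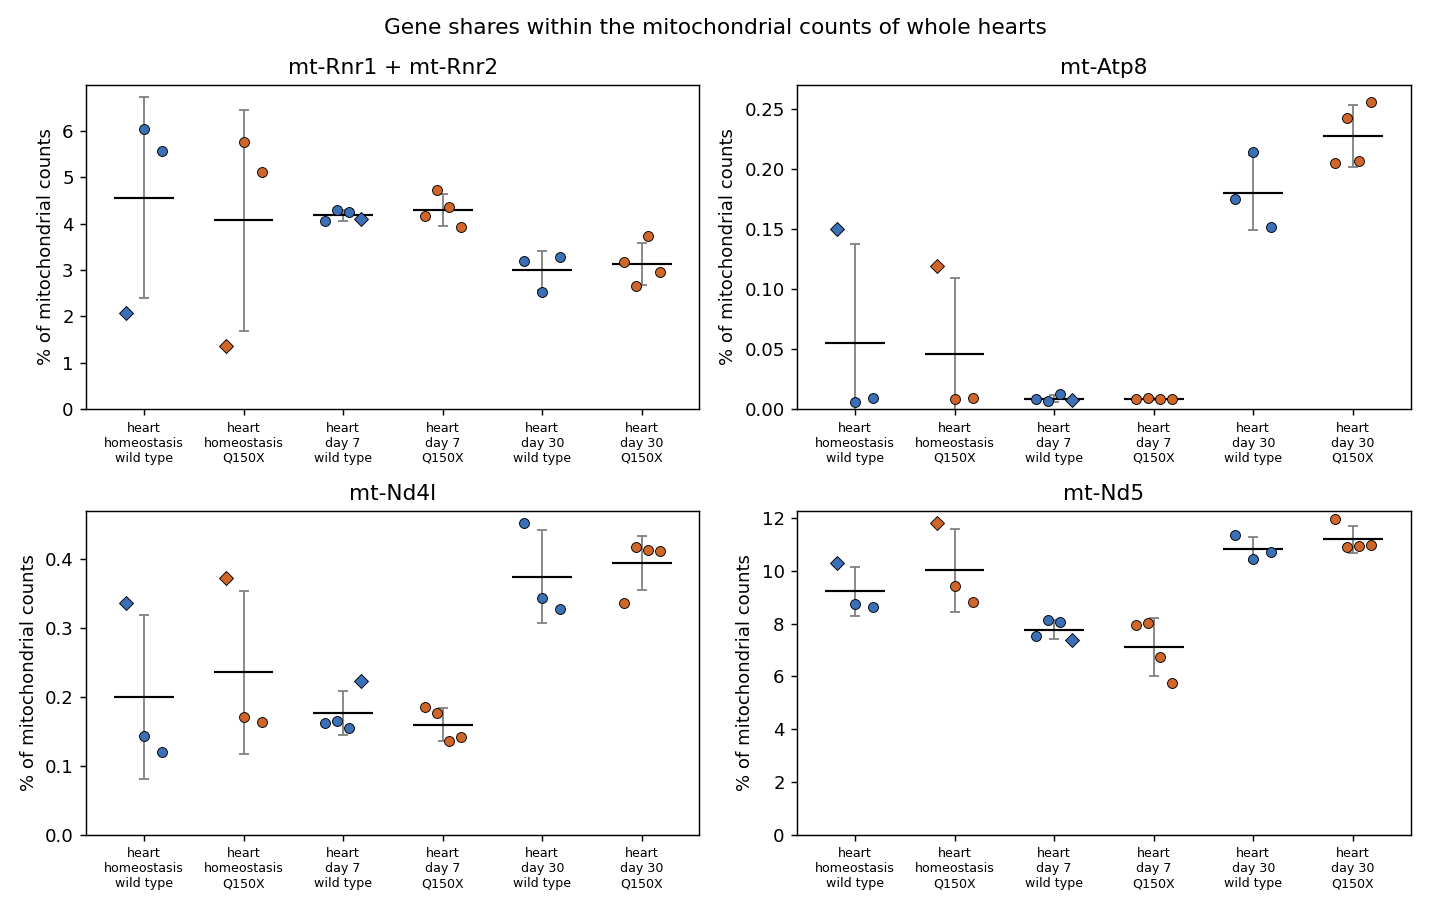
Shares of mitochondrial counts in whole hearts for the 2 ribosomal RNAs together, mt-Atp8, mt-Nd4l and mt-Nd5, by group; points are libraries, horizontal lines means, vertical bars SDs (cut at 0 where they reach below), and diamonds the 3 hearts that stand apart. For mt-Atp8 the 2 homeostasis diamonds are at 0.150 and 0.119%, the other homeostasis and day 7 hearts at or below 0.0124%, and day 30 hearts at 0.152% or more.

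The ribosomal RNA share at day 7 differed from homeostasis by 0.18 with all hearts (adjusted p = 0.724) and by -0.40 without the hearts that stood apart (adjusted p = 0.0275). At day 30 the corresponding values were -0.29 (adjusted p = 0.585) and -0.88 (0.0275). For mt-Nd6 the difference of day 7 from homeostasis was 0.26 (adjusted p = 0.022) with all hearts and 0.11 (0.234) without them.

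Tested gene by gene with edgeR, 0 of 15 were called at day 7 in wild-type hearts (13.7% of all genes called, 7.65% higher and 6.07% lower; 2 at an unadjusted p under 0.05, and 2 lower by DESeq2). In Q150X hearts 5 fell at day 7 (26% of all genes called, 12.3% lower), and these were mt-Nd5 by 0.99 (SE 0.16, adjusted p = 0.000258), mt-Nd4l by 1.03 (SE 0.26, 0.0075), mt-Nd2 by 0.70 (SE 0.19, 0.0114), mt-Cytb by 0.53 (SE 0.17, 0.0275) and mt-Atp8 by 2.80 (SE 0.89, 0.0292). mt-Atp8 was at -0.62 (adjusted p = 0.137) without the hearts that stood apart, whereas mt-Nd5 and mt-Nd2 were called in all 15 alternatives run. The mt-Nd4l call was lost without homeostasis Q150X heart number 1 (-0.66, adjusted p = 0.0718), and that of mt-Cytb in 6 of 15 alternatives. At day 30 mt-Nd4l rose in wild type (0.93 ± 0.29 SE, adjusted p = 0.0476; 8.93% of all genes called, 5.45% higher and 3.49% lower), and in Q150X mt-Nd1 fell by 0.63 (SE 0.20, adjusted p = 0.0195) and mt-Co1 by 0.46 (SE 0.16, 0.0316), where 29.7% of all genes were called, 14.2% lower. These 3 calls were lost in 9 of 14, 5 of 15 and 7 of 15 alternatives. With the replicate number as a block, 3 of the 5 calls of day 7 in Q150X passed (mt-Nd5, mt-Nd4l and mt-Nd2), and of the 2 of day 30 mt-Nd1 did (adjusted p = 0.0394). Without the hearts that stood apart 4 of the 15 were called at day 30 in wild type and 9 in Q150X, and the share of all genes called then is not given here. Of the 78 nuclear oxidative phosphorylation genes, 1 fell at day 7 and 1 at day 30 in wild type, and 15 and 28 in Q150X. Leaving out 1 heart gave 5 to 25 and 18 to 29 in Q150X, and 0 to 4 and 0 to 10 in wild type. For the response to MI itself edgeR called no difference between genotypes in any of the 15 at day 7 or at day 30 (2 and 0 at an unadjusted p under 0.05, DESeq2 0).

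The cell makeup of these hearts moved as well. The summed cardiomyocyte markers were at 81146 to 107220 CPM of nuclear counts at homeostasis, 62176 to 77088 at day 7 and 57285 to 84354 at day 30. Fibroblast markers were at 1100 to 2710, then 2516 to 7970 and 2729 to 10443, and leukocyte markers at 221 to 399, then 325 to 1369 and 582 to 2141. Their part in the values of the mitochondrial genes was not tested.

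Between Q150X and wild type, none of the 15 genes was called in any compartment or at any time (edgeR, adjusted p at least 0.222; DESeq2 also 0; without the filter on low counts 4 in homeostasis cardiomyocytes and 1 at day 3), against 0.443% of all genes at day 30 in hearts and 0% in the other 6 comparisons. The nearest to a difference was in homeostasis cardiomyocytes. There all 15 lay below 0 (median -0.37, against 0.0051 over all genes) and 7 had an unadjusted p under 0.05. mt-Nd5 had the smallest (-0.41 ± 0.13 SE, adjusted p = 0.222). All 78 nuclear oxidative phosphorylation genes lay above 0 (median 0.23, 27 at an unadjusted p under 0.05). The share of all genes at that unadjusted p is not given here. The 15 are parts of 1 mitochondrial total and do not vary independently, so their number is not repeated evidence. The mitochondrial share averaged 43.7% in wild type and 37.7% in Q150X there, with the highest value in wild-type library number 2 (49.95%). These groups did not overlap, but 3 against 3 libraries cannot reach an exact permutation p below 0.1. Over both times the difference in cardiomyocytes was -0.14 (exact permutation p = 0.025, adjusted p = 0.075), and without that library -0.086 (adjusted p = 0.102). The complex I part of the protein-coding counts was lower in Q150X cardiomyocytes, at 46.7% against 47.7% on average at homeostasis and 46.4% against 47.1% at day 3 (log2 difference -0.026, exact permutation p = 0.015, adjusted p = 0.0471; adjusted p = 0.147 with the replicate number as a block).

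In hearts the mitochondrial share differed between genotypes by -0.05 (exact permutation p = 0.429, adjusted p = 0.585). Transfer RNA held 0.0510% of mitochondrial counts in wild-type and 0.0675% in Q150X hearts at day 30, without overlap (exact two-sided permutation p = 0.0286, the smallest that 3 against 4 allow, adjusted p = 0.42 over 42 such pairs). In endothelial cells the mitochondrial share differed by -0.38 on the log2 scale (exact permutation test, adjusted p = 0.797). Its plain means were nonetheless 8.37% in wild type and 8.91% in Q150X, since 1 Q150X library of day 3 was the highest and the other the lowest of that day. Without Q150X library number 2, those of the 15 that edgeR called at day 3 were all higher in Q150X endothelial cells. The same held for the difference in response. Without Q150X library number 1 the called genes were all lower in both, so the direction turned with the library left out. In each case a single Q150X library remained, which is assumed to vary like the other groups, so counts of called genes are not given.

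Transfer RNAs were counted only in traces, and nearly all of those counts fell on 1 strand. They held 0.0310 to 0.0769% of mitochondrial counts. Of the 22, 17 had at least 1 count, and mt-Tw, mt-Tk, mt-Td, mt-Ty and mt-Tg were at 0 in all 43 libraries. For mt-Tk, mt-Td and mt-Tg, copies in the unannotated parts of the nuclear block were not looked for. The 8 transfer RNA genes on the annotated minus strand held 99.8% of the counts (171909) and the 14 on the plus strand 0.247% (426), and the 6 with the most counts were all on the minus strand. mt-Tp, the transfer RNA for proline, held 92.0% of the counts, mt-Ts1, for serine, 4.61% and mt-Tc, for cysteine, 1.86%. The genes of mt-Tp and mt-Ts1, the main sources of these counts, read as follows.
mt-Tp: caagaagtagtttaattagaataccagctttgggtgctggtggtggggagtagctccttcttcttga
mt-Ts1: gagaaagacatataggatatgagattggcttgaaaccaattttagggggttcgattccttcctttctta
Opposite the minus-strand genes runs the transcript of the other strand, and mt-Ts1 shares 3 bases with mt-Co1. Since the strand setting is not given, reads from a transfer RNA and from the opposite strand's transcript cannot be told apart.

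mt-Ts1 and mt-Tc fell in day 30 hearts. In wild-type hearts mt-Ts1 had 5, 639 and 390 counts at homeostasis and 5, 9 and 19 at day 30. In Q150X hearts it had 11, 595 and 116, then 22, 26, 13 and 4. Day 7 hearts lay between 106 and 395. The 2 low homeostasis values are again the hearts number 1. edgeR gave a log2 fold change of -5.08 ± 1.33 SE (adjusted p = 0.0263) in wild type and -3.98 ± 1.12 SE (0.0133) in Q150X for mt-Ts1, and -3.82 ± 0.97 SE (0.0212) and -2.69 ± 0.83 SE (0.0208) for mt-Tc. mt-Tn, for asparagine, fell in Q150X (-2.66 ± 0.87 SE, adjusted p = 0.0266) and was at -2.05 (0.146) in wild type. The mt-Ts1 call was lost in 8 of 14 alternatives in wild type and 2 of 15 in Q150X, that of mt-Tc in 8 of 14 and 5 of 15, and that of mt-Tn in 5 of 14. With the replicate number as a block none of the 5 passed (adjusted p 0.0574 to 0.104). mt-Te, for glutamate, and mt-Tl1, for leucine, with 515 and 228 counts over all libraries, passed the filter in hearts and cardiomyocytes, and mt-Ta, for alanine, with 121 counts, in cardiomyocytes. None of these 3 was called in any comparison by edgeR. At day 30 mt-Te was at -3.30 (adjusted p = 0.167) in wild-type and -3.62 (0.0684) in Q150X hearts.

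In cardiomyocytes mt-Ts1 was not lower at day 3, with 542, 588 and 412 counts against 189, 234 and 324 at homeostasis in wild type. There mt-Tp fell by 0.81 in wild type (adjusted p = 0.000699) and by 0.53 in Q150X (0.00627), mt-Tq, for glutamine, by 1.92 (0.000346) and by 1.29 (0.00265), and mt-Tc by 0.83 (0.0195) and by 0.98 (0.00518), all by edgeR. In Q150X endothelial cells at day 3 mt-Tp rose (3.61 ± 0.85 SE, adjusted p = 0.0145), a call lost in 5 of 13 alternatives, with 0.38 (adjusted p = 0.0783) without library number 1. As a share of mitochondrial counts, transfer RNA was lower at day 3 in endothelial cells (log2 difference -0.34, exact permutation test, adjusted p = 0.0347) and in cardiomyocytes (-0.16, 0.0347), and higher in hearts at day 30 than at day 7 (0.40, 0.022).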

How the data were processed

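RNA of mouse hearts, cardiac endothelial cells and cardiomyocytes was extracted with Trizol, and 2 µg per sample went to library construction, per the labels' protocols. The authors deposited 1 table of raw counts per Ensembl gene for 43 libraries. The submitters' processing notes name HISAT2, kallisto and build GRCm39. Their roles, and the type, strandedness and read length of the libraries, are not stated there. Symbols, gene lengths, strands and coordinates came from GENCODE vM21 (GRCm38), which named 52029 of the 57010 rows. No row was left out as not being a gene. Sequences are GENCODE transcripts, and nuclear copies were found among them with blastn (at least 40 bases at 99% identity).

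Shares were computed per library and compared on the log2 scale by exact two-sided permutation of libraries within the other factor (6 measures, 11 comparisons, Benjamini-Hochberg over 66). Genes were tested with edgeR 4.0.16 (quasi-likelihood, TMM, filterByExpr with a count minimum of 10), 1 fit per compartment with all its groups (17845 heart, 18223 endothelial and 15169 cardiomyocyte genes, 19 contrasts), checked on simulated counts. All 13 messenger and both ribosomal RNAs passed the filter everywhere. Of the transfer RNAs, 7 passed for hearts, 2 for endothelial cells and 8 for cardiomyocytes. Software was R 4.3.3, limma 3.58.1, DESeq2 1.42.0, Python 3.11.15, numpy 2.4.6, scipy 1.17.1 and pandas 2.3.3.

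All 13 messenger and both ribosomal RNAs are named, transfer RNAs where they passed the filter or took the 3 largest shares, and from each nuclear list up to 3 called genes of smallest p per direction. The members and lists were chosen with earlier results of these data known. Alternatives were other scalings (DESeq2 size factors, library size, nuclear genes only), no filter, the compared groups alone, DESeq2, a replicate block, a linear scale, other numerators and denominators of the share, and leaving out each library or the 4 that stand apart. Added after seeing the data were the share of the 5 genes without a near-identical copy, and the block and the leave-one-out values for shares within the mitochondrial counts. Of 47 pairs of replicates none were identical. Same-numbered libraries deviated together in homeostasis hearts (r = 0.59, 0.31 and 0.33) and at no other time in every pair.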

Additional observations from a re-analysis of the deposited data

Results flagged for a closer look

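Among groups of 4 hearts, 7 of 63 checks found a library farther from the others than Dixon's critical value of 0.829 allows, where chance gives about 1 in 20. Q150X day 7 heart number 3 accounted for 3: mt-Co1 held 36.8% of mitochondrial counts (others 41.1 to 41.9%), the complex IV genes 40.03% of protein-coding counts (44.4 to 45.03%), and mt-Rnr1 1.49% (1.25 to 1.27%). Q150X day 30 heart number 1 accounted for another 3: the transfer RNA share was 0.0769% (others 0.0636 to 0.0650%), the mt-Nd4l share 0.337% (0.413 to 0.417%) and the mt-Nd5 share 11.98% (10.9 to 10.98%). Wild-type day 7 heart number 4, which stood apart through the placental gene Tpbpa, had mt-Nd4l at 0.224% (others 0.155 to 0.165%).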

How the results depend on the processing

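The alternatives that changed most were leaving out the libraries that stand apart, the choice of scaling, and leaving out single libraries. In all of them the causes of the changes were not tested.

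Without the libraries that stand apart, the log2 difference in mitochondrial share was 0.16 between genotypes in endothelial cells, -0.29 at day 7 in hearts and 3.55 at day 3 in endothelial cells. That of the ribosomal RNA share was 0.014 between genotypes in hearts, -0.88 at day 30 and -0.68 at day 3 in endothelial cells, 0.44 for endothelial cells against hearts, and turned to -0.40 at day 7 and to -0.44 for cardiomyocytes against hearts. The transfer RNA share gave -0.24 (day 7 hearts), -0.36 (day 3 endothelial) and -0.080 (cardiomyocytes against hearts), and the mt-Nd6 share 0.11 (day 7), -0.25 (day 30 against homeostasis) and -0.37 (endothelial cells against hearts). Complex I gave -0.079 (day 7) and -0.064 (day 30), and complex IV -0.0070 (genotype, endothelial) and 0.010 (day 30).

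In percentage points, the mitochondrial share differed by 0.54 between genotypes in endothelial cells, the ribosomal RNA share by -0.080 at day 7 and -0.18 for cardiomyocytes against hearts, and the transfer RNA share by -0.0094 at day 3 in endothelial cells. The mitochondrial share at day 7 in hearts passed the threshold at -0.20 with the 13 protein genes alone, -0.34 with TMM-scaled sizes and -0.29 with the 5 genes without a copy.

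Of the 15 genes, the number called at day 7 in wild-type hearts was 0, and 2 with DESeq2 or without the libraries that stand apart. At day 30 in wild type it was 1, and 0 by library size, with nuclear scaling or unfiltered, 2 with DESeq2 and 4 without those libraries. At day 30 in Q150X it was 2, and 0 by library size or with groups alone, 4 with nuclear scaling, 5 with DESeq2 and 9 without those libraries. In wild-type endothelial cells at day 3 it was 3, and 13 by library size, 0 unfiltered, and 15 with groups alone or DESeq2. In Q150X it was 15, and 0 with groups alone. For the genotype at day 3 and the interaction, called genes were all higher without Q150X library number 2. They were all lower without number 1, and each of these fits left 1 Q150X library. In cardiomyocytes library size gave 4 (wild type) and 2 (Q150X) at day 3, no filter 7 and groups alone 7 in Q150X, and no filter 4 and 1 between genotypes at homeostasis and day 3.

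Same-numbered libraries deviated together in every pair in homeostasis hearts and at no other time, and the labels do not say what a number marks. With the replicate number as a block, 3 of the 15 were called at day 7 and 1 at day 30 in Q150X hearts, and 0 in endothelial cells of either genotype, and the complex I difference between genotypes in cardiomyocytes was -0.026 (adjusted p = 0.147).

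With each library left out in turn, the mitochondrial share ranged from -0.85 to 0.16 (genotype, endothelial), -0.17 to -0.086 (genotype, cardiomyocytes), -0.24 to -0.15 (day 7 hearts), 2.29 to 3.55 (day 3 endothelial) and -0.20 to -0.12 (day 3 cardiomyocytes). The ribosomal RNA share ranged from -0.15 to 0.13 (genotype, hearts), -0.14 to 0.32 (day 7), -0.68 to -0.52 (day 3 endothelial), -0.18 to 0.29 (cardiomyocytes against hearts) and 0.71 to 1.18 (endothelial cells against hearts). The transfer RNA share ranged from -0.11 to -0.072 (genotype, cardiomyocytes), -0.14 to 0.055 (day 7), 0.28 to 0.47 (day 30 against homeostasis), -0.37 to -0.29 (day 3 endothelial), -0.0052 to 0.20 (cardiomyocytes against hearts), -0.15 to 0.056 (endothelial cells against hearts) and 0.10 to 0.19 (cardiomyocytes against endothelial cells). The mt-Nd6 share ranged from -0.028 to 0.043 (genotype, hearts), 0.18 to 0.31 (day 7), -0.017 to 0.026 (day 3 cardiomyocytes) and -0.31 to -0.18 (endothelial cells against hearts). Complex I ranged from -0.024 to 0.0096 (genotype, endothelial) and -0.031 to -0.023 (genotype, cardiomyocytes), and complex IV from -0.0085 to 0.034 and 0.029 to 0.049 for the same, and -0.089 to -0.061 (day 30 against day 7). Counts of called genes ranged over 0 to 1 (day 7) and 0 to 3 (day 30) in wild-type hearts, 3 to 5 and 0 to 9 in Q150X hearts, 7 to 12 and 2 to 4 in wild-type and Q150X cardiomyocytes, 0 to 0 and 4 to 15 in wild-type and Q150X endothelial cells, and 0 to 15 (genotype at day 3) and 0 to 14 (interaction) in endothelial cells. In Q150X endothelial cells at day 3, mt-Co3 turned to -0.11 without replicate 1 and was at 7.88 without replicate 2.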
